A study of Homo sapiens with 2 samples.

Results

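The enzymes of drug and xenobiotic metabolism were examined in TFK1 cells, an established human cholangiocarcinoma cell line, after MBD2 knockdown. Members were taken by gene symbol from 6 families: cytochromes P450 of CYP1 to CYP4 (35 genes), UDP-glucuronosyltransferases of UGT1 and UGT2 (19), glutathione S-transferases (GST, 17), sulfotransferases (SULT, 13), aldo-keto reductases of AKR1 (10) and aldehyde dehydrogenases (ALDH, 18). These were 112 of the 56638 genes in the table. Total RNA was sequenced from a T-shNC library, labelled negative control, and a T-shMBD2 library, labelled MBD2 knockdown, with 1 library per group. Apart from antibiotic selection, the sources used here name no drug treatment for either. By the study's methods, short hairpin RNAs were delivered by lentivirus and transduced cells were selected with an antibiotic. The labels do not say which of the study's hairpins against MBD2 was used. There is thus no replicate check of any difference, no p-value is given, and each 95% interval is an exact Clopper-Pearson interval on how a gene's reads divide over the pair of libraries, which reflects counting error alone. In bulk RNA, fewer cells that express a gene and less RNA per cell cannot be told apart.

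As background, phase 1 enzymes such as the cytochromes P450 oxidize a compound, and the AKR1 and ALDH enzymes reduce or oxidize aldehydes and ketones made from drugs, lipids and steroids. Phase 2 enzymes then attach a soluble group, which is glucuronic acid for UGT, glutathione for GST and sulfate for SULT. Biliary epithelium lines the bile ducts and meets many of these compounds after the hepatocyte, the main site of drug metabolism. MBD2 is a protein that binds methylated CpG sites in DNA.

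MBD2 itself had 365 counts in MBD2 knockdown and 1013 in the negative control (15.6 and 44.6 TPM, a level scaled by gene length and library). Its log2FC, the log2 ratio of MBD2 knockdown to negative control after TMM scaling, was -1.48 (interval -1.66 to -1.31), which leaves 35.8% of the control level. The libraries held 14728814 and 14467406 counts, with 9.56% and 9.37% from mitochondrial genes. Of 8 biliary epithelial markers, all had at least 10 counts, led by the keratin KRT8 (3006 TPM in MBD2 knockdown and 3890 in the negative control) and KRT7 (1160 and 1327 TPM), while KRT19 (15.0 and 9.04 TPM), EPCAM (11.3 and 16.9 TPM) and CFTR (0.17 and 0.32 TPM) were low. Of 10 hepatocyte markers, the hepatocyte product ALB had 3 and 0 counts, APOB, TTR, CYP7A1 and G6PC had 0 in both, and CPS1 (4888 and 4835 counts) and SERPINA1 (39 and 11 counts) were the only ones with at least 10 counts. Marker lists of fibroblasts, leukocytes and endothelial cells summed to 8, 1 and 0 counts in MBD2 knockdown and 15, 3 and 1 in the negative control.

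In level, the ALDH and AKR1 families led the others in both libraries. In TPM, the ALDH genes summed to 12999 in MBD2 knockdown and 13637 in the negative control, and the AKR1 genes to 8028 and 10274. The other families were far lower, with sums of 854 and 888 TPM for GST, 275 and 298 for CYP1-4, 52.7 and 69.7 for SULT, and 13.1 and 8.72 for UGT. Of the 112 genes, 25 had 0 counts in both libraries, which allows up to 3 counts in each, 26 had 1 to 9 counts summed, and 61 had at least 10 and were compared. At least 1 TPM was reached by 49 genes in MBD2 knockdown and 48 in the negative control. Genes at 0 included the hepatic SULT2A1, the bile acid enzyme AKR1D1, GSTM1, CYP4A11, UGT2B17 and 5 of the 9 UGT1A rows. GSTT1 was also at 0, but its identifier is the 1 member identifier not matched in GENCODE 29, and whether the authors' reference could take its reads was not tested.

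**Figure D1:**
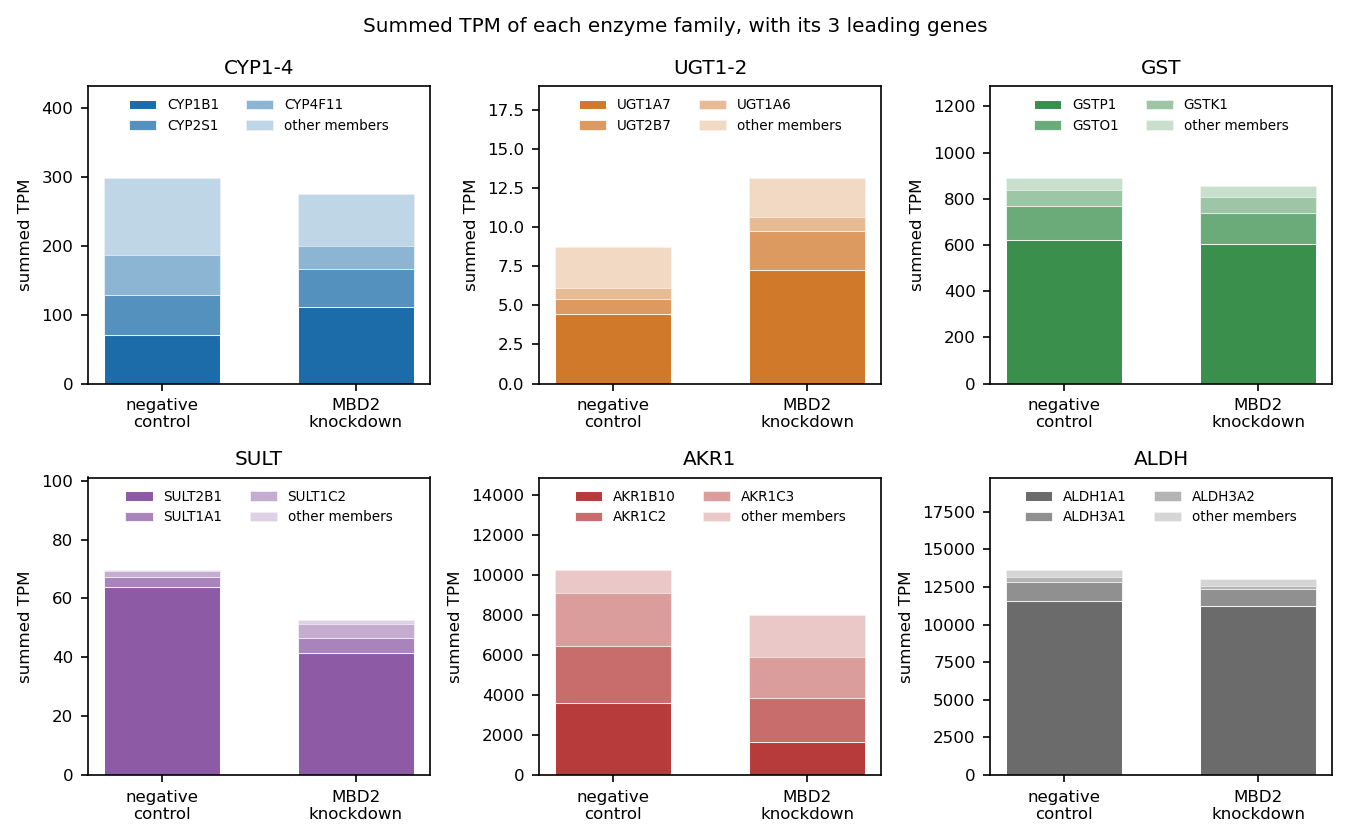
Summed TPM of each family in the negative control and MBD2 knockdown, as bars that start at 0 on a separate axis for each family, with the 3 genes of highest TPM and the other members stacked. AKR1 sums to 10274 TPM in the negative control and 8028 in MBD2 knockdown, UGT to 8.72 and 13.1 TPM, and ALDH1A1 fills most of the ALDH bar in both libraries.

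Across the 61 compared genes, 5 were higher in MBD2 knockdown with a log2FC above 1 and 5 were lower with a log2FC below -1. The 10 genes past this fold are 16.4% of the members compared, beside 10.6% of all 17545 genes with at least 10 counts (5.48% above 1 and 5.07% below -1). The interval also excluded 0 in 9 of the 10, beside 1187 of the 1851 genes past the fold among all genes. As a share of genes compared, both conditions were met by 9 of 61 members, beside 1187 of 17545 genes (6.77%). The log2FC was below 0 in 41 members (67.2%, beside 51.1% of all genes), and the interval lay wholly below 0 in 22 (36.1%, beside 18.4%) and wholly above 0 in 10 (16.4%, beside 19.7%). The median log2FC was -0.19, beside -0.0082 for all genes. Among the 42 members with at least 100 counts, 2 were above 1 (beside 1.78% of all genes) and 3 below -1 (beside 1.06%), so 5 were past the fold (11.9%, beside 2.84%), 31 were below 0 (73.8%, beside 49.6%) and the median was -0.20, beside 0.0024. Among the 19 members with fewer counts, 5 were past the fold (26.3%), a share close to the 27.1% of all genes at that depth.

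**Figure D2:**
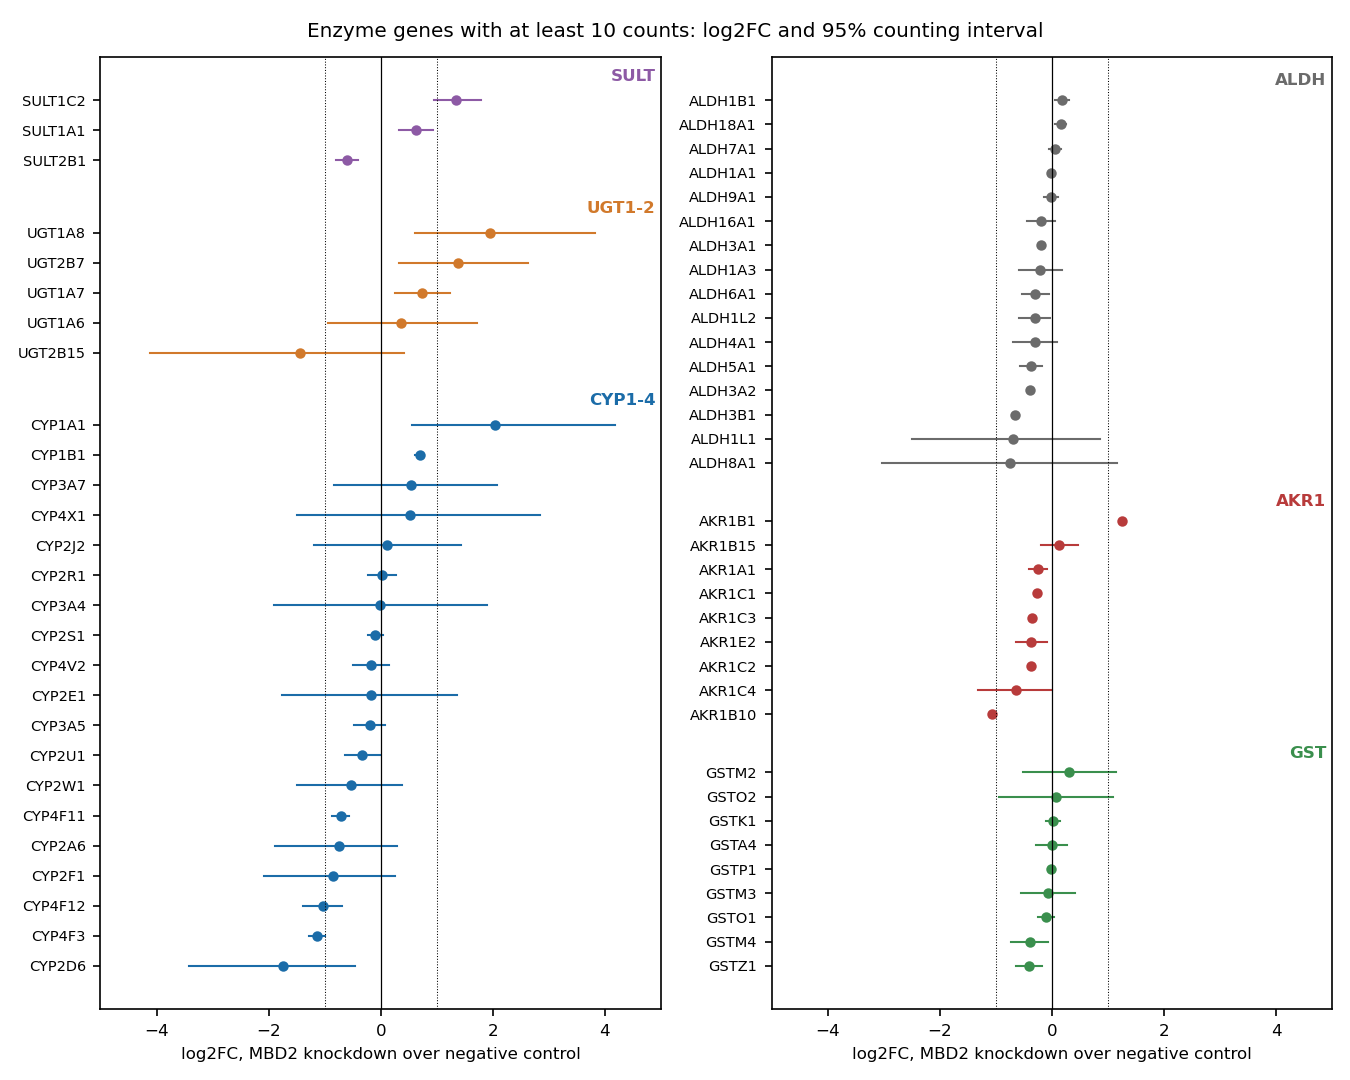
Log2FC of MBD2 knockdown over negative control (x axis) for the 61 enzyme genes with at least 10 counts, by family, with dots for the value and bars for the 95% counting interval, and dotted lines at 1 and -1. AKR1B1 (1.25) and AKR1B10 (-1.07) stand on opposite sides with bars narrower than the dot, while CYP1A1 (0.56 to 4.18) and UGT2B15 (-4.12 to 0.41) have wide intervals.

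Aldo-keto reductases held the members with the most reads behind a change past the fold. AKR1B1, aldose reductase, which reduces glucose to sorbitol, had 20060 counts in MBD2 knockdown and 8370 in the negative control (1818 and 778 TPM), a log2FC of 1.25 (1.22 to 1.29). AKR1B10, which reduces retinaldehyde and lipid aldehydes, had 15257 and 31745 counts (1678 and 3582 TPM), a log2FC of -1.07 (-1.09 to -1.04). The order of these paralogs thus turned over: AKR1B10 had the higher TPM in the negative control and AKR1B1 in MBD2 knockdown. At 1000 counts or more in the higher library, 3 of 17 members were past 1 or -1, beside 1.92% of 3488 genes, and 11 were below 0, beside 46.0%. This filter was chosen after seeing the data. CYP4F3, 1 of the 3, and CYP4F11, which was below 0, met it only through the negative control. In that set AKR1B1 ranked 31 from the most positive log2FC and AKR1B10 ranked 17 from the most negative. The summed counts of AKR1B1, AKR1B10 and AKR1B15 were 35475 and 40258, a log2FC of -0.19 (-0.21 to -0.17), so the sum hides both changes.

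Both genes lie on chromosome 7 (GENCODE 29, GRCh38), with AKR1B1 at chr7:134442350-134459284 on the minus strand and AKR1B10 at chr7:134527592-134541408 on the plus strand, 68.3 kb apart. AKR1B15, a further 7.73 kb from AKR1B10, had 158 and 143 counts (log2FC 0.13, -0.20 to 0.47). Coding sequences of AKR1B1 and AKR1B10 were 76.7% identical with a longest shared run of 22 bases, whereas AKR1B10 and AKR1B15 were 92.6% identical with a run of 116 bases, so a share of reads could be assigned to either of the latter pair. The promoter of AKR1B1, the higher gene with the most reads, is shown with its 33 CG dinucleotides in capitals, beside a median of 14 over 27305 promoters. It holds the letters GCGTG on the strand opposite to the printed one, where they appear in print as CACGC. The table has 2 windows for AKR1B1 from different starts, of which the first is printed and the second holds 18 CG. Other higher members had few, with 10 in the window of CYP1A1, 3 in that of SULT1C2 and 0 in that of UGT2B7. Sequences are from RefSeq (GRCh38.p14), from 250 bases before to 50 after the start. Neither methylation nor MBD2 binding was analysed here, and the table gave no window for AKR1B10.
AKR1B1, chr7:134459051-134459350, minus strand: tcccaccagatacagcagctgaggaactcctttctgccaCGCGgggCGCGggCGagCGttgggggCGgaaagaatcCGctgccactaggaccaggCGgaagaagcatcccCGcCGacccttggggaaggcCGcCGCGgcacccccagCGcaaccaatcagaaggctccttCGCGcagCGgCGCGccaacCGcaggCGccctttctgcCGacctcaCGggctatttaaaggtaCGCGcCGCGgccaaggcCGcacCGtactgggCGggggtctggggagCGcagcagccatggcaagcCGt

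The AKR1C genes, which interconvert active and inactive steroids and reduce prostaglandins, all had a log2FC below 0. None was past the fold, beside 10.6% of all genes. All but AKR1C4 had at least 100 counts, a depth at which 2.84% of all genes were past it. AKR1C2 had 48240 counts in MBD2 knockdown and 61697 in the negative control (2190 and 2873 TPM), a log2FC of -0.36 (-0.38 to -0.35). AKR1C3, which makes testosterone from androstenedione, had 20845 and 26615 counts (2018 and 2643 TPM) and the same log2FC, -0.36 (-0.39 to -0.34). AKR1C1, which inactivates progesterone, had 8864 and 10619 counts (log2FC -0.27), and AKR1C4, a mostly hepatic enzyme, had 34 and 53 (log2FC -0.64, -1.32 to -0.0011). The sum of the 4 had a log2FC of -0.35 (-0.37 to -0.34). AKR1C1 and AKR1C2 share 98.0% of their coding bases, with an identical run of 186 bases, so the split between them is uncertain and the sum is the safer value. With AKR1A1 (-0.24) and AKR1E2 (-0.36), 7 of 9 compared AKR1 genes were below 0, beside 51.1% of all genes. All 7 had an interval wholly below 0, beside 18.4% of all genes with at least 10 counts. More reads narrow an interval, and 8 of the 9 genes had at least 100 counts. The share of intervals below 0 was not computed at that depth. The family's summed reads were 114227 and 140166, a log2FC of -0.30 (-0.32 to -0.29).

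Aldehyde dehydrogenases had the highest levels and small differences, with none of the 16 compared genes past the fold, beside 10.6% of all genes. Of the 16, 14 had at least 100 counts, a depth at which 2.84% of all genes were past it. ALDH1A1, which oxidizes retinaldehyde to retinoic acid, had 135330 counts in MBD2 knockdown and 135690 in the negative control (11233 and 11555 TPM). It was the gene with rank 3 by counts in each library, at 0.919% and 0.938% of all reads, and its log2FC was -0.013 (-0.024 to -0.0018). ALDH3A1, which oxidizes aromatic and medium-chain aldehydes, had 13487 and 15377 counts (log2FC -0.20, -0.23 to -0.16). ALDH3A2, the fatty aldehyde dehydrogenase, had 5543 and 7176 counts (log2FC -0.38, -0.43 to -0.33), and ALDH3B1 had 2843 and 4426 (log2FC -0.65, -0.72 to -0.58). In the other direction, ALDH18A1, which makes a precursor of proline, had 1826 and 1623 counts (log2FC 0.16) and the mitochondrial ALDH1B1 had 1262 and 1104 (log2FC 0.18). Of the 16 genes, 13 were below 0 (beside 51.1% of all genes), and the interval lay wholly below 0 in 7 (beside 18.4%) and above 0 in 2 (beside 19.7%). More reads narrow an interval, and these interval shares were not computed for all genes with at least 100 counts. ALDH2, the mitochondrial acetaldehyde dehydrogenase, lies outside the symbol pattern and is not among them, and it had 1155 and 848 counts (log2FC 0.44, 0.31 to 0.57). The summed reads gave a log2FC of -0.055 (-0.065 to -0.045), which became -0.24 without ALDH1A1.

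**Figure D3:**
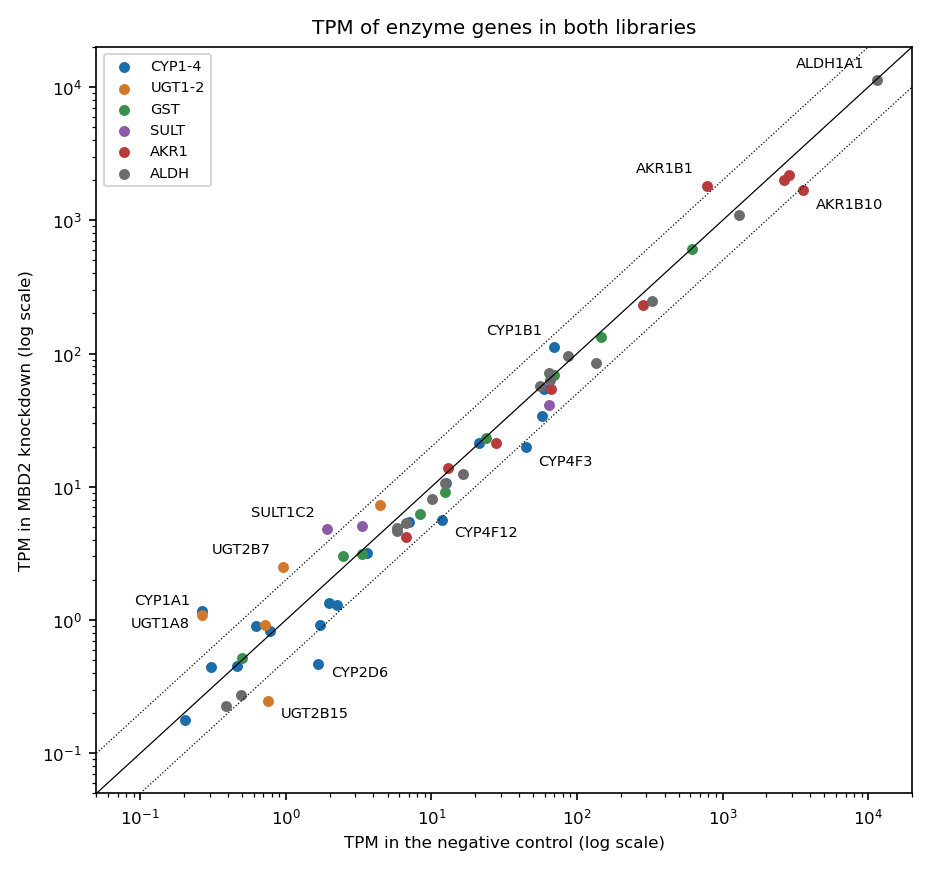
TPM of the 61 compared enzyme genes in the negative control (x axis) and MBD2 knockdown (y axis), both on log scales, coloured by family, with the solid line at equal TPM and dotted lines at a 2-fold difference. ALDH1A1 sits at the top on the line of equal TPM, AKR1B1 and AKR1B10 lie outside the dotted lines at high levels, and the other labelled genes outside them are mostly below 10 TPM.

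The cytochromes P450 past the fold included members of CYP4F, CYP1 and CYP2. CYP4F3, which inactivates leukotriene B4 by omega-hydroxylation, had 573 counts in MBD2 knockdown and 1249 in the negative control (19.8 and 44.4 TPM), a log2FC of -1.13 (-1.28 to -0.99). It ranked 15 from the most negative in the same set of 3488 genes. CYP4F3 entered that set only through its count in the negative control, so the rank depends partly on the filter. CYP4F12, a fatty acid hydroxylase, had 105 and 214 counts (log2FC -1.03, -1.39 to -0.69), and CYP4F11, which hydroxylates long-chain fatty acids and vitamin K, had 617 and 1006 (log2FC -0.71, -0.86 to -0.57). CYP4F3 and CYP4F12 were past the fold and CYP4F11 was not, and the reads of the 6 CYP4F genes summed to 1301 and 2470, a log2FC of -0.93 (-1.03 to -0.84). CYP4F2, CYP4F22 and CYP4F8 had 2 and 1, 4 and 0, and 0 and 0 counts. The 3 expressed genes lie on chromosome 19, with CYP4F3 at chr19:15640897-15662825 on the plus strand, CYP4F12 9.93 kb from it on the same strand, and CYP4F11 249.5 kb from it on the other strand. CYP4F3 shares 94.6% of coding bases with CYP4F2, 86.1% with CYP4F11 and 84.1% with CYP4F12, with longest identical runs of 112, 64 and 54 bases, so reads could be shared between them.

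The CYP4F3 promoter window is shown for contrast with that of AKR1B1, since it holds only 3 CG dinucleotides (capitals) and neither of the response element cores searched. CYP4F12 had no window in the table.
CYP4F3, chr19:15641062-15641361, plus strand: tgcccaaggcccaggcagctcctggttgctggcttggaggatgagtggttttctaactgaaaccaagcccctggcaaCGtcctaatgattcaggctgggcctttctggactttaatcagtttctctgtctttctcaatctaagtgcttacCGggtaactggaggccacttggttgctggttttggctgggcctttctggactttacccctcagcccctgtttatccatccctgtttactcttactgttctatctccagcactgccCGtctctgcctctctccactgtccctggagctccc

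Of the CYP1 genes, CYP1A1 was past the fold on few counts, CYP1B1 was not, and CYP1A2 had 1 and 0 counts. CYP1B1, which oxidizes estradiol and polycyclic aromatic hydrocarbons, was the P450 with the highest TPM and had 3341 counts in MBD2 knockdown and 2047 in the negative control (111 and 70.0 TPM), a log2FC of 0.70 (0.62 to 0.78). RMDN2 and CYP1B1-AS1, which overlap it on the opposite strand, had 109 and 70 and 12 and 14 counts, and the strand setting of the counting is not given in the sources used here. CYP1A1, a related hydrocarbon-oxidizing enzyme at chr15:74719542-74725610, had 18 and 4 counts (log2FC 2.03, 0.56 to 4.18), or 1.17 and 0.27 TPM. CYP2S1, an enzyme found mostly outside the liver, had 863 and 919 counts (log2FC -0.10, -0.24 to 0.036). CYP2D6, which oxidizes codeine and many other drugs, had 6 and 21 counts (log2FC -1.73, -3.41 to -0.46). The other drug-oxidizing P450s were low: CYP3A5 had 204 and 232 counts, and CYP3A4 had 6 in each library. In the family, 1 gene was higher and 3 were lower past the fold, of 19 compared, beside 10.6% of all genes. CYP1A1 and CYP2D6, 2 of these 4, have under 100 counts, a depth at which 27.1% of all genes were past it. Its summed reads, 6424 and 6450, gave a log2FC of -0.015 (-0.065 to 0.035). That value joined opposite changes, since without CYP1B1 the sum had a log2FC of -0.52.

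UDP-glucuronosyltransferases had few counts, with 5 of 19 genes compared. UGT1A7, an enzyme expressed mainly outside the liver, had 97 counts in MBD2 knockdown and 58 in the negative control (7.27 and 4.46 TPM), a log2FC of 0.73 (0.25 to 1.23). UGT1A6, which conjugates simple phenols, had 13 and 10 counts (log2FC 0.35, -0.93 to 1.72). The row named UGT1A8 had 21 and 5 counts (log2FC 1.96, 0.62 to 3.82), but its identifier, ENSG00000241635, is named UGT1A1 in GENCODE 29, and the row named UGT1A1, which had 0 counts in both libraries, carries ENSG00000242366, named UGT1A8 there. Which of the 2 genes these reads belong to is therefore uncertain, and no position is given for them. UGT1A genes share their last exons, with identical coding runs of 736 to 738 bases among these 3 rows, so the summed UGT1A reads, 136 and 73, are the safer value (log2FC 0.88, 0.47 to 1.32). How reads in the shared exons were counted is not given in the sources used here. If they were left unassigned, neither the UGT1A rows, also those at 0, nor their sum would hold them. UGT2B7, which conjugates morphine and bile acids, had 27 and 10 counts (log2FC 1.38, 0.33 to 2.64). UGT2B15, which conjugates androgens, had 3 and 9 counts (log2FC -1.45, -4.12 to 0.41), so its interval covers 0. Of the 5 compared genes, 3 were past the fold, beside 10.6% of all genes. All 3 have under 100 counts, a depth at which 27.1% of all genes were past it. The family's summed reads were 177 and 112, a log2FC of 0.65 (0.30 to 1.01). This difference lay in the UGT1A rows, since the UGT2B genes summed to 36 and 35 counts (log2FC 0.031, -0.68 to 0.75).

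Of 3 compared sulfotransferases, 1 was past the fold, beside 10.6% of all genes. All 3 had at least 100 counts, a depth at which 2.84% of all genes were past it. SULT1C2, a cytosolic sulfotransferase of phenols, had 175 counts in MBD2 knockdown and 68 in the negative control (4.81 and 1.92 TPM), a log2FC of 1.35 (0.94 to 1.78). Its relative SULT1C4 had 8 counts in MBD2 knockdown and 0 in the negative control, too few to compare. SULT1A1, the main phenol sulfotransferase, had 230 and 148 counts (log2FC 0.63, 0.32 to 0.94), and its near-identical copy SULT1A2 (96.8% of coding bases) had 7 and 1. SULT2B1, which sulfates cholesterol, had the highest TPM of the family, 41.3 and 64.0, and had 342 and 516 counts (log2FC -0.60, -0.80 to -0.40). The direction of the family's sum therefore depended on the scale, with a log2FC of 0.041 (-0.11 to 0.19) for summed reads (764 and 738) and -0.40 for summed TPM. SULT1C2 lies at chr2:108288639-108309915 on the plus strand. Its promoter window, shown as that of the higher sulfotransferase, has 3 CG dinucleotides (capitals). It holds the letters TGACNNNGC on the strand opposite to the printed one, where they appear in print as GCCAGGTCA.
SULT1C2, chr2:108288645-108288944, plus strand: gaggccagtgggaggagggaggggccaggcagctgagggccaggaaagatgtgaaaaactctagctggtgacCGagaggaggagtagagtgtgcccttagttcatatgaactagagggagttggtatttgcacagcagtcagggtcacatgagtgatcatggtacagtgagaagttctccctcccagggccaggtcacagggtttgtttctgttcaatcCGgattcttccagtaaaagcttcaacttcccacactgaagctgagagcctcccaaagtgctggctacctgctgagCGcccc

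Glutathione S-transferases differed little between the libraries, and none of 9 compared genes was past the fold, beside 10.6% of all genes. Of the 9, 7 had at least 100 counts, a depth at which 2.84% of all genes were past it. GSTP1, the pi-class enzyme typical of biliary epithelium, had 5813 counts in MBD2 knockdown and 5807 in the negative control (605 and 620 TPM), a log2FC of -0.0074 (-0.060 to 0.045). GSTO1, which reduces dehydroascorbate, had 807 and 859 counts (log2FC -0.099, -0.24 to 0.041), and GSTK1, an enzyme of mitochondria and peroxisomes, had 1069 and 1051 (log2FC 0.016, -0.11 to 0.14). Only GSTM4 (142 and 186 counts, log2FC -0.40) and GSTZ1 (281 and 371, log2FC -0.41) had intervals that excluded 0. GSTA2 had 0 and 6 counts and was not compared. The summed reads, 8462 and 8624, gave a log2FC of -0.036 (-0.080 to 0.0072).

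Genes that regulate, feed or work beside these enzymes were read from a list of 74, of which 61 had at least 10 counts. Of these, 2 were higher and 2 were lower past the fold, beside 5.48% above 1 and 5.07% below -1 of all genes, and the median log2FC was -0.012, beside -0.0082. Among 14 regulators, the hepatocyte transcription factor HNF4A had 309 counts in MBD2 knockdown and 631 in the negative control (log2FC -1.04, -1.24 to -0.84), and the xenobiotic receptor NR1I3 had 3 and 12 (log2FC -1.84, -4.47 to -0.12). AHR, the receptor through which hydrocarbons induce CYP1 genes, had 1140 and 1601 counts (log2FC -0.50, -0.61 to -0.39), and its repressor AHRR had 209 and 149 (log2FC 0.48, 0.17 to 0.79). NFE2L2, the regulator of antioxidant response genes, had 1633 and 1845 counts (log2FC -0.18, -0.28 to -0.088), and its target NQO1, a quinone reductase, had 17494 and 18258 (log2FC -0.071, -0.10 to -0.041). The xenobiotic receptor NR1I2 had 1 and 0 counts.

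Among other phase 1 enzymes, CES1, which hydrolyzes ester prodrugs, had 70 counts in MBD2 knockdown and 16 in the negative control (log2FC 2.09, 1.32 to 3.004), and AOX1, an oxidase of nitrogen heterocycles, had 91 and 27 (log2FC 1.73, 1.11 to 2.42). PON2, a lactonase, had 6071 and 5420 counts (log2FC 0.15, 0.10 to 0.21). Of 5 genes that give electrons to or support cytochromes P450, POR, their reductase, had 2385 and 1756 counts (log2FC 0.43, 0.34 to 0.52) and CYB5A had 1509 and 1074 (log2FC 0.48, 0.37 to 0.60). These were the highest of the 5. CYB5B, PGRMC1 and CYB5R3 had log2FC of 0.078, 0.074 and -0.13, and the group median was 0.078. Of the 12 genes that supply cofactors, 10 were below 0, beside 51.1% of all genes, with a median log2FC of -0.33. None was past the fold, beside 10.6% of all genes. All 12 had at least 100 counts, a depth at which 2.84% of all genes were past it. UGDH, which makes UDP-glucuronic acid for the UGT enzymes, had 8865 and 12561 counts (log2FC -0.51, -0.55 to -0.47). PGD, which makes NADPH, had 19266 and 24963 counts (log2FC -0.38, -0.41 to -0.36). GCLC and GCLM, the subunits of the enzyme that starts glutathione synthesis, had log2FC of -0.41 and -0.34.

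**Figure D4:**
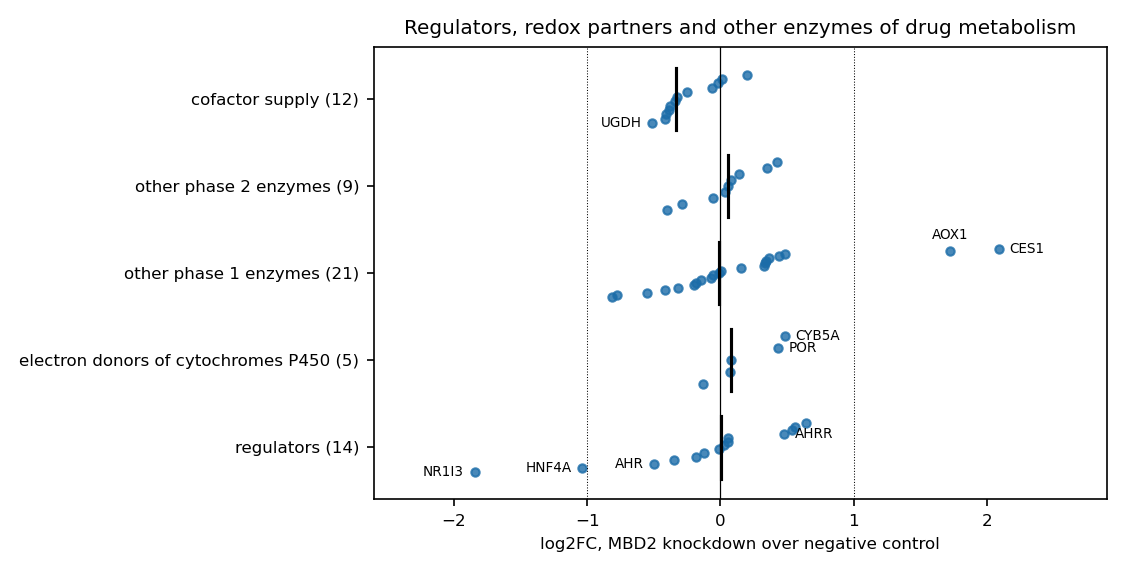
Log2FC of MBD2 knockdown over negative control (x axis) for the 61 genes outside the families with at least 10 counts, in 5 groups with their gene number in brackets, as 1 dot per gene and a vertical bar at the group median, with dotted lines at 1 and -1 and genes spread vertically in each group to separate them. Cofactor supply has its median at -0.33, CES1 (2.09) and AOX1 (1.73) lie above 1, and HNF4A (-1.04) and NR1I3 (-1.84) lie below -1.

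A RefSeq promoter window was found for 89 of the 112 members, 51 of them compared. Both strands were searched for GCGTG, the core of the element bound by AHR with ARNT, and TGACNNNGC, the core of the antioxidant response element. GCGTG was in 27.0% of the members' windows and 31.4% of the compared members', beside 36.3% of all 27305 promoters of that length, and TGACNNNGC was in 15.7% and 11.8%, beside 13.6%. The median number of CG dinucleotides was 4 over all members and 14 over compared members, beside 14 over all promoters. By family, compared genes had medians of 21 for ALDH, 19 for GST, 9 for SULT (2 genes), 7 for CYP1-4, 3 for AKR1 and 2 for UGT, each from a gene's first window in the table. A match describes the letters in the window only.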

How the data were processed

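RNA of TFK1 cells with MBD2 knockdown or the negative control (1 library each) was taken up from 2 deposited tables, raw read counts and a TPM signal, both per gene. The submitters' processing notes name fastp, HISAT2 2.1.0, featureCounts, DESeq 1.18.1 and GRCh38.p13, with no roles; the annotation and strand setting are not given in the sources used here. Rows that share a symbol repeat its values in what the authors deposited, so repeated rows were dropped, after which TPM summed to 1000000 per library.

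Counts were scaled with TMM factors (edgeR 4.0.16, R 4.3.3). A prior of 0.5 counts, in proportion to library size, entered each log2FC, and genes needed a sum of at least 10 counts. Intervals were computed with scipy 1.17.1, and a count of 3 or fewer was taken as the floor. The scripts were tested on simulated data. Alternatives were DESeq2 1.42.0 factors, total counts, upper-quartile factors, TPM plus 0.1 or 1, priors of 2 and 0.1, filters of 1 and 100 counts, sums without the leading member, and subfamily sums.

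Named by rule were MBD2, members past 1 or -1, the 3 members of highest mean TPM per family, and, of the 74 other genes, those past 1 or -1, the 5 of highest mean TPM, AHR, NFE2L2 and NR1I2. Further genes were named after their values were seen. Members and lists were chosen with earlier results of these data known. Of the members, 111 of 112 identifiers matched GENCODE 29, which gave positions and coding sequences; the tables' own positions differ from it and were not used. Because each condition has 1 library, no test was made. Values of some single genes are not reported here.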

Additional observations from a re-analysis of the deposited data

How the results depend on the processing

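With 1 library per condition, the counting intervals say nothing of the spread between cultures, and genes under 100 counts set many of the counts past the fold. No paired analysis was possible because there is 1 library per condition. DESeq2 factors, upper-quartile factors and priors of 2 and 0.1 left the values described here, counts within 1.5 times, and no gene named by rule changed direction while past the fold. With total counts, the summed log2FC was -0.32 for AKR1 and -0.072 for ALDH. With log2 of TPM plus 0.1, the AKR1 median was -0.39 and the summed log2FC was -0.11 for CYP1-4, -0.40 for SULT, -0.36 for AKR1 and -0.069 for ALDH. TPM plus 1 gave the same 4 sums to 2 digits, with 1 higher and 2 lower members, and 1, 0 and 0 members past the fold in CYP1-4, UGT and SULT. Among genes with at least 1 count, 14 members were higher and 14 lower, and 12 CYP1-4, 6 UGT, 2 GST, 4 SULT and 2 ALDH members and 8 of the other genes were past the fold. At this filter a gene with 1 and 0 counts, such as CYP1A2, already has a log2FC of 1.58. The share over all genes was not computed there, so these numbers cannot be read as a result about the members. Among genes with at least 100 counts, 2 members were higher and 3 lower, with 2 CYP1-4 and 0 UGT members and 2 of the other genes past it, and at 1000 counts in the higher library, a filter chosen after seeing the data, 1 was higher and 2 lower. Without the member with the most reads, the summed log2FC was -0.52 for CYP1-4, -0.098 for GST, 0.92 for SULT, -0.26 for AKR1 and -0.24 for ALDH. Of 44 subfamily sums, 2 were higher and 1 lower. These filters and sums change which genes or reads are counted. Total counts rescale the libraries and moved the log2FC of all genes by about -0.017. TPM had a median shift of -0.028 over genes with at least 10 counts and reads in both libraries. For the rest of the TPM differences the cause was not tested. Of 266 values of the 38 genes named by rule, 255 moved by less than the counting interval and 11 by more. Values near 0 changed sign within that interval: GSTP1 was 0.0015 with DESeq2 factors, and GSTK1 was -0.0013 with total counts and -0.012 with TPM plus 0.1 or 1.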
